A study of Mus musculus with 8 samples.

Results

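The chromosome 4 block is a run of neighboring genes on the distal part of mouse chromosome 4 that holds Padi2 and Sdhb. Its members were the non-control array probes placed there by the mm9 coordinates in the array files whose signal was well above background, as the image software calls it, on at least 3 of 4 arrays of either strain. There were 39 such probes with 29 gene names, out of 57 probes with 42 names in the interval and out of 28081 probes with 18449 names on the array that met the same criterion, and they ran from chr4:139004835-139006237 in Ubr4 to chr4:141182138-141182197 in Plekhm2, over 2.18 Mb. The block was chosen by its dense differences in log2 intensity between the strains, so the strain differences of its probes are given as a description, with no p-value.

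Hippocampal gene expression was compared between BTBR mice, an inbred strain used as a model of autism, and C57BL/6J (B6) mice, the common laboratory strain that served as control. Each strain was represented by 4 male mice of 5 months, with 1 whole hippocampus sample and 1 single-color Agilent array per mouse, and no mouse had received a drug. BTBR mice, in full BTBR T+ Itpr3tf/J, carry the tufted allele of Itpr3 and B6 mice were wild type, and both came from Jackson stock bred in 1 facility. For the BTBR samples the labels name C57BL/6J under strain background, but their title, source and genotype all say BTBR. Age, sex and breeding facility were the same for both strains, but BTBR and B6 are separate inbred lines, so the alleles that differ between them cannot be told apart here.

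The interval holds several gene families with well separated roles. Peptidylarginine deiminases, whose 5 genes lie side by side here, convert arginine residues of proteins to citrulline when calcium is high, and PADI2 is the main form in brain, where myelin-forming oligodendrocytes are rich in it and myelin basic protein is a known substrate. Sdhb encodes the iron-sulfur subunit of succinate dehydrogenase, the enzyme that belongs both to the tricarboxylic acid cycle and, as complex II, to the respiratory chain. Around them lie genes for a lysosomal ATPase (Atp13a2), an ubiquitin ligase (Ubr4) and a transcriptional corepressor (Spen).

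Each probe is a sequence of 60 bases. A called probe of Sdhb and one of Necap2, which bridge an exon junction and so are split over a longer stretch of genome, are shown as examples of what was hybridized. They are written 5′ to 3′ in the sense of the transcript, as printed in the array files, with their mm9 position and strand and the transcript base from the probe annotation.
Sdhb, NM_023374 at base 310, chr4:140522514-140527081 on the plus strand: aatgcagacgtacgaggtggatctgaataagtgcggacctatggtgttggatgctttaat
Necap2, NM_025383 at base 505, chr4:140626114-140628468 on the minus strand: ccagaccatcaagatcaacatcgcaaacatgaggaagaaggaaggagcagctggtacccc

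Values below are quantile normalized log2 intensities, and a difference is the BTBR mean minus the B6 mean on that scale. A probe was called when limma, fitted on the 27982 probes that passed the filters, gave an adjusted p under 0.05. From 56.8% to 71.9% of the probes of an array were well above background, and no probe was saturated. The arrays lay on 2 slides, with replicates 1 and 2 of both strains on slide 1 and replicates 3 and 4 on slide 2. BTBR mice 1 and 2 stood apart from the other arrays in their markers of tissue composition. The mean of 6 hippocampal neuron markers was 11.34 and 10.95 in them, against 12.50 and 12.56 in BTBR mice 3 and 4 and 12.05 to 12.81 in B6 mice. Means of 4 choroid plexus markers were 13.82 and 13.76 in the same 2 mice, against 11.56 to 13.06 in the other 6, and BTBR mouse 1 also stood at 13.80 for 3 thalamus markers, against 10.82 to 11.51 in the other 7. For several results the value without these mice is given as well. In whole tissue, fewer cells of a type and less RNA per cell cannot be told apart.

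Of the 39 block probes, 13 (33.3%) were called, from 12 genes, 7 higher and 6 lower in BTBR. Over all probes tested the share called was 7.61%, with 3.31% higher and 4.3% lower. Among the members, 2 met the background criterion in BTBR only and 1 in B6 only. Of the 30 members above background on all 8 arrays, 11 were called in a fit on such probes, 5 higher and 6 lower. In that fit 7.35% of all probes were called. The 4 BTBR arrays lay entirely above or below the 4 B6 arrays for 15 block probes (38.5%), 8 above and 7 below, and over all probes tested that share was 14.2%, with 6.91% above and 7.27% below. By the rank product, the test that the study's methods name, 5 block probes (12.8%) passed beside 3.95% of all probes. Called rises ran from 0.33 to 0.98 and called falls from -0.34 to -0.90, so that rises and falls of like size lay among each other. The median difference of the 39 probes was 0.06, with 26 higher and 13 lower in BTBR, beside a median of 0.01 over all probes tested, of which 53.3% were higher.

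The calls were not spread evenly over the block. The first was at the first Rcc2 probe, chr4:140277252-140277311, and the last at the probe for B330016D10Rik, chr4:141103547-141103606. These 2 calls bound a stretch of 826 kb with 24 member probes. The 13 member probes before it, from Ubr4 to Arhgef10l, included no call and no separation of the strains, and their differences ranged from -0.07 to 0.34. Tmem82 and Plekhm2, which follow it, were not called either, at -0.06 and 0.32. Without BTBR mice 1 and 2 Plekhm2 was at 0.19. The label of a dense block therefore describes its distal stretch and not its first members. Those first members were sparse, with a gap of 488 kb between Igsf21 and Arhgef10l. Klhdc7a (0.34) before the stretch and Plekhm2 (0.32) after it were near the smallest called rise, 0.33.

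**Figure D1:**
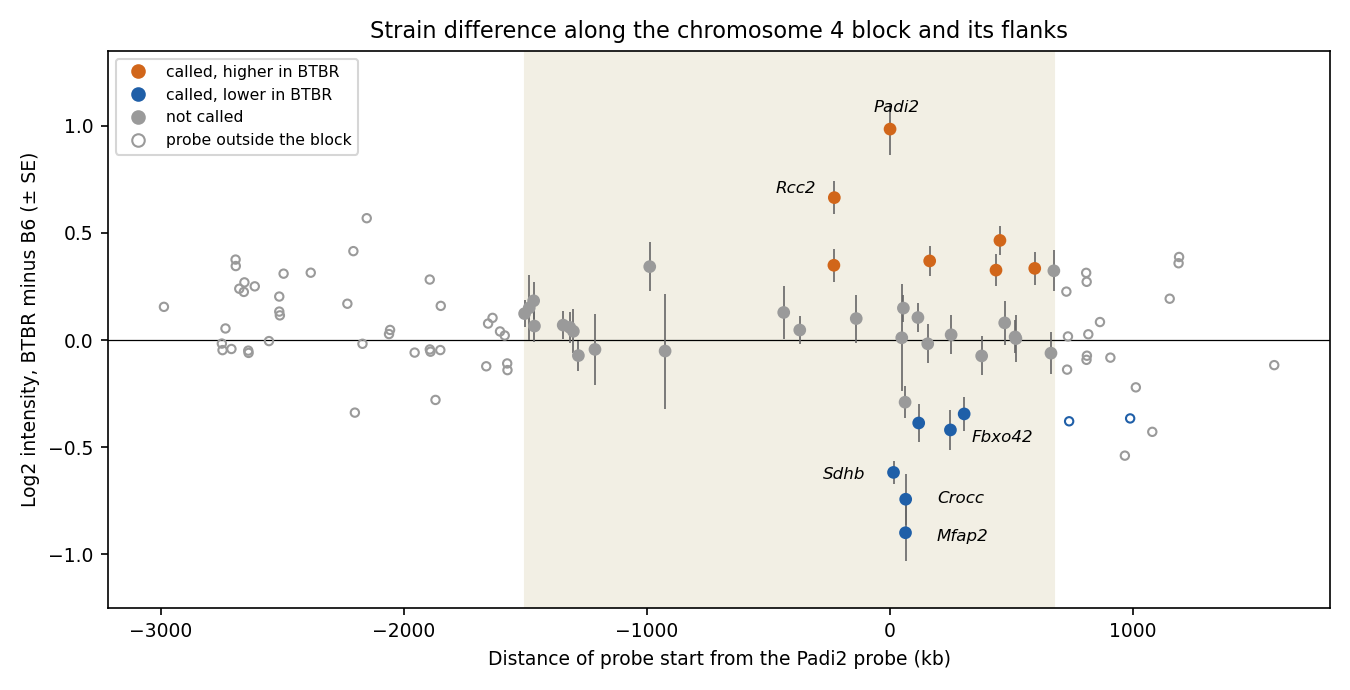
Difference in log2 intensity, BTBR minus B6, with its standard error, for the 39 block probes (filled) and for the probes within 1.5 Mb on either side (open), against distance from the Padi2 probe in kb. The 13 called block probes lie from 231 kb before to 595 kb after the Padi2 probe, and rises and falls lie among each other within that stretch.

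Padi2 had the largest difference of the block. Its probe, NM_008812 at base 4551, chr4:140508295-140508354, read 12.22, 11.98, 12.22 and 12.30 in B6 mice 1 to 4 and 13.30, 13.42, 12.99 and 12.94 in BTBR mice 1 to 4. Every BTBR mouse was above every B6 mouse, and the 2 BTBR mice of slide 1 were above those of slide 2. The means were 12.18 ± 0.14 and 13.16 ± 0.23 (SD, n = 4 each), a difference of 0.98 (SE 0.12) or 1.98-fold. It was 1.26 on slide 1 and 0.71 on slide 2, and 0.79 without BTBR mice 1 and 2.

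Padi2 is known as a gene of oligodendrocytes, so its values are set beside 11 oligodendrocyte markers, Mbp and Mog among them. The mean level of the markers was 13.71, 13.55, 13.61 and 13.58 in B6 mice 1 to 4 and 13.95, 14.28, 13.48 and 13.27 in BTBR mice 1 to 4. The 4 BTBR mice thus had the same order for the markers as for Padi2. The 2 BTBR mice of slide 2 had lower markers than all 4 B6 mice but higher Padi2 than all of them. Of the 11 markers, 9 were higher and 2 lower in BTBR, with a median difference of 0.09, or -0.23 without BTBR mice 1 and 2, and 0 called by limma. Mobp, with the largest difference (0.72, adjusted p = 0.13), passed only without BTBR mouse 4 (0.93, adjusted p = 0.027), and its 3 probes ran from -0.40 to 0.72. The part of oligodendrocyte content in the difference between the BTBR mice was not tested.

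**Figure D2:**
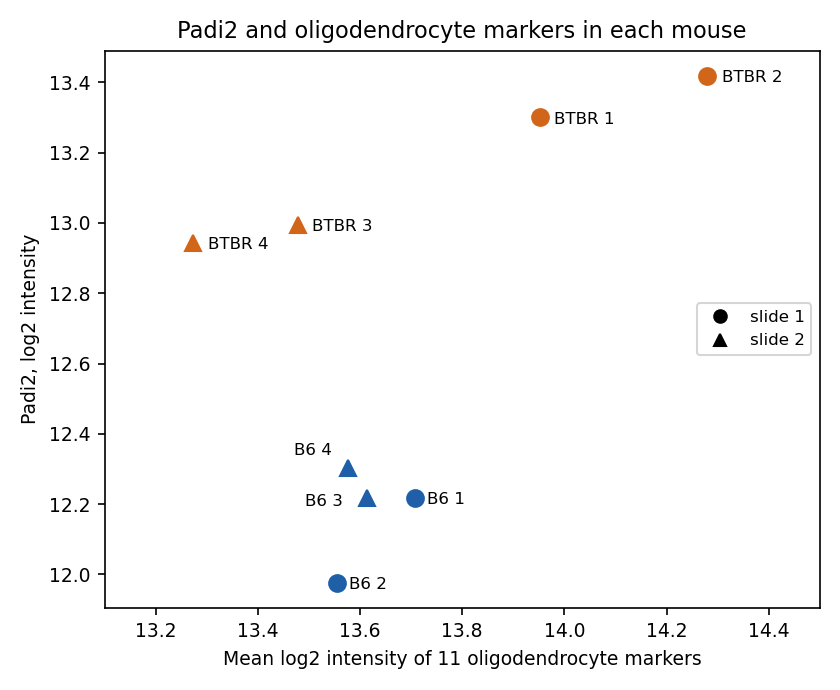
Log2 intensity of Padi2 against the mean log2 intensity of 11 oligodendrocyte markers, 1 point per mouse, with circles for slide 1 and triangles for slide 2. The 4 BTBR mice lie at 12.94 to 13.42 for Padi2 and the 4 B6 mice at 11.98 to 12.30, while BTBR mice 3 and 4 have the lowest marker means of all.

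The other peptidylarginine deiminases were dim in hippocampus. Padi1, the only other one with a member probe, read 9.16, 9.36, 9.05 and 9.29 in B6 and 9.35, 9.55, 9.07 and 9.29 in BTBR, and the strains overlapped at a difference of 0.10 (SE 0.11). The probes for Padi3, Padi4 (3 probes) and Padi6 were not members, being above background on 2 arrays or fewer of either strain. Of 3 brain proteins known as substrates of PADI2, Gfap was lower in BTBR by limma (-1.30, SE 0.17, adjusted p = 0.0014), while Mbp (0.09) and Vim (0.24) did not pass. The 3 Mbp probes ran from -0.52 to 0.25, with 0 called. The brightest Mbp probe was at 0.37 on slide 1, -0.18 on slide 2 and -0.16 without BTBR mice 1 and 2. Gfap is the intermediate filament protein of astrocytes. Its difference was -1.37 and -1.23 on slides 1 and 2, and -1.04 (adjusted p = 0.0086) without BTBR mice 1 and 2. Of the 7 other astrocyte markers 0 were called, with 3 higher and 4 lower in BTBR.

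Sdhb lies 14159 bases after the Padi2 probe and went the other way. Its probe read 14.53, 14.62, 14.56 and 14.60 in B6 mice 1 to 4 and 13.94, 14.01, 13.92 and 13.96 in BTBR mice 1 to 4. The mice of each strain stayed within a narrow band and the bands were far apart, with means of 14.58 ± 0.04 and 13.96 ± 0.04 (SD, n = 4 each). The difference was -0.62 (SE 0.06), which is 0.652 times the B6 intensity, and it was -0.60 and -0.64 on slides 1 and 2 and -0.63 without BTBR mice 1 and 2.

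The partners of Sdhb lie on other chromosomes and were tested in the same fit. None of the 3 other subunits passed, with differences of 0.11 (SE 0.06) for the flavoprotein subunit Sdha, 0.06 (SE 0.07) for the membrane anchor Sdhc and -0.02 (SE 0.07) for the anchor Sdhd, at adjusted p of 0.39 to 0.92 by limma. Of 4 measured assembly factors 1 passed, Sdhaf1, which helps to insert iron-sulfur clusters into SDHB. Its probe read 13.72, 13.69, 13.53 and 13.53 in B6 and 12.98, 12.85, 12.29 and 13.01 in BTBR, without overlap. It was lower in BTBR by limma (-0.83, SE 0.15, adjusted p = 0.0099), by 0.79 and 0.88 on slides 1 and 2. Among 14 other genes of the tricarboxylic acid cycle, the isocitrate dehydrogenase genes Idh2 (0.33, adjusted p = 0.027) and Idh3a (0.27, adjusted p = 0.021) were higher in BTBR by limma and 12 did not pass. Idh2 was not called without any of the B6 mice or BTBR mouse 1 or 3 (0.29 to 0.37 over the 8 fits with an array left out), nor Idh3a without B6 mouse 1, 2 or 3 or BTBR mouse 1 or 4 (0.25 to 0.29), and neither passed without BTBR mice 1 and 2 (adjusted p = 0.085 and 0.090).

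Rcc2, at the start of the stretch, encodes a regulator of chromosome condensation that also acts on small GTPases. Its probe at base 3638 of NM_173867 read 14.29, 14.11, 14.09 and 14.00 in B6 and 14.79, 14.78, 14.87 and 14.70 in BTBR, a difference of 0.66 (SE 0.08). Its probe at base 1883 read 10.74, 10.57, 10.67 and 10.76 in B6 and 10.97, 11.17, 11.08 and 10.92 in BTBR, a difference of 0.35 (SE 0.08). This second probe was not called without B6 mouse 2 or 3 or BTBR mouse 2 or 3 (0.30 to 0.34). Rcc2 was the single gene of the block with several member probes of which all were called.

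Mfap2 and Crocc face each other tail to tail, with 687 bases between their probes, and both were lower in BTBR. Mfap2 encodes a glycoprotein of the elastic microfibrils of extracellular matrix. Its probe at base 994 of NM_008546 read 11.57, 11.49, 11.60 and 11.94 in B6 and 10.82, 10.55, 10.60 and 11.02 in BTBR. The difference of -0.90 (SE 0.13) was the largest fall of the block. Its probe at base 276 also separated the strains, with 8.79 to 9.01 in B6 and 8.51 to 8.71 in BTBR, but its difference of -0.29 (SE 0.08) was not called. With the processed signal of the image software it was -0.50. Crocc encodes rootletin, the main protein of the rootlet that anchors cilia. Its probe, NM_172122 at base 6452, read 12.95, 12.59, 12.58 and 12.68 in B6 and 12.16, 11.74, 11.84 and 12.09 in BTBR, a difference of -0.74 (SE 0.12).

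Atp13a2, between Sdhb and Mfap2, encodes a lysosomal ATPase that moves polyamines and whose loss causes a form of parkinsonism. Its probe at base 3834 separated the strains narrowly, with 15.86 to 15.90 in B6 and 15.90 to 16.10 in BTBR, and was not called at 0.15 (SE 0.06). Its probe for another transcript, at base 1490, read 8.97 to 9.11 in B6 and 8.86, 8.58, 9.92 and 8.86 in BTBR. BTBR mouse 3 lay above all other mice there and the 3 remaining BTBR mice lay below all B6 mice, and the difference was 0.01 (SE 0.25), or -0.28 without that mouse. The other P5-type ATPases, Atp13a1, Atp13a3, Atp13a4 and Atp13a5, gave 0 calls.

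Beyond Crocc, 4 further genes of general cell function had a called probe. Necap2, whose protein works in clathrin-coated vesicles, read 9.17, 9.35, 9.41 and 9.36 in B6 and 8.97, 9.09, 8.75 and 8.92 in BTBR at base 505, a difference of -0.39 (SE 0.09). Szrd1, a gene for a protein with a SUZ domain, was at 10.81 to 10.87 in all B6 mice and at 11.10 to 11.36 in BTBR, a difference of 0.37 (SE 0.07). Fbxo42, a substrate receptor of an SCF ubiquitin ligase, read 10.40, 10.63, 10.57 and 10.52 in B6 and 10.07, 10.32, 9.92 and 10.13 in BTBR at base 2598, a difference of -0.42 (SE 0.09). Arhgef19, an exchange factor for small GTPases, was at 9.55 to 9.66 in B6 and 9.06 to 9.38 in BTBR, a difference of -0.34 (SE 0.08). The strains did not overlap at any of these 4 probes. The difference at Necap2 was -0.22 on slide 1 and -0.55 on slide 2. Szrd1 was called whichever array was left out, but not with median centring in place of quantile normalization (0.33), nor was Fbxo42 (-0.44). Necap2 and Fbxo42 lost their calls without B6 mouse 2, 3 or 4 or BTBR mouse 1 or 4, at -0.36 to -0.40 and -0.39 to -0.43. Arhgef19 lost its call without any of the B6 mice or BTBR mouse 1 or 2, at -0.33 to -0.36.

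The distal end of the stretch is marked by B330016D10Rik, a long noncoding RNA with a dim probe. It read 8.24, 8.40, 8.33 and 8.43 in B6 and 8.58, 8.74, 8.60 and 8.81 in BTBR, without overlap, a difference of 0.33 (SE 0.08). It lost its call without any of the B6 mice or BTBR mouse 2 or 4, at 0.29 to 0.36. The size of this dim difference was 0.77 with the processed signal of the image software scaled to the 75th percentile, 0.31 with normexp background correction and 0.23 in the deposited matrix.

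**Figure D3:**
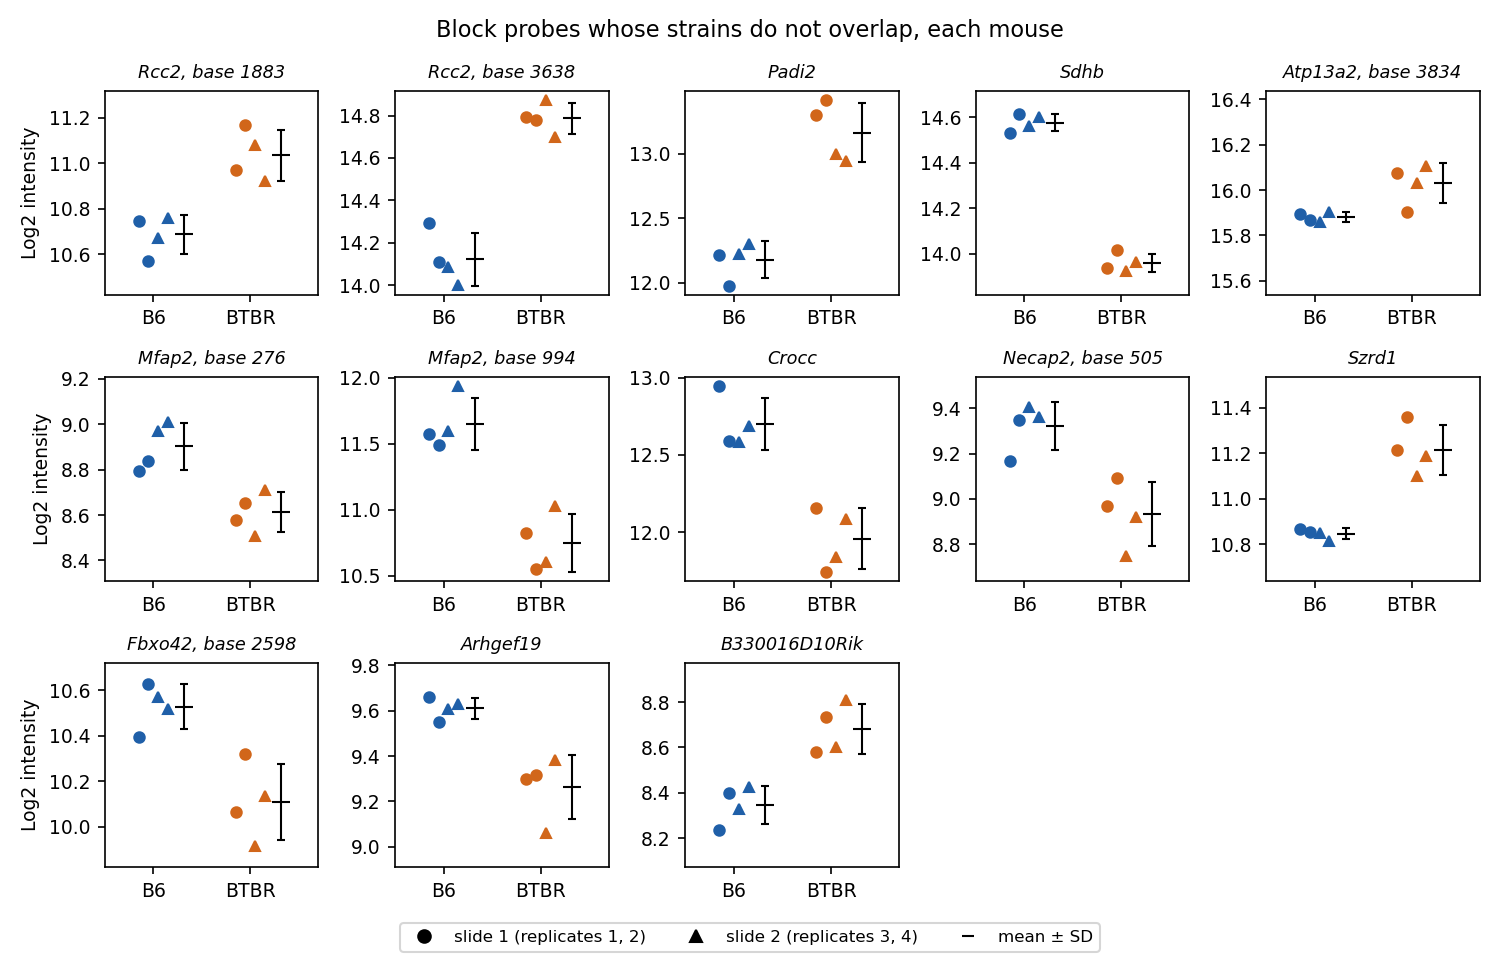
Log2 intensity in each mouse for 13 of the 15 block probes whose strains do not overlap, with mean and SD (n = 4) beside the points, circles for slide 1 and triangles for slide 2. Each panel has its own axis, which does not start at 0. B6 and BTBR points are apart in every panel, by little for Atp13a2 and by most for Padi2.

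Probes of the same gene often differed in size or sign. There were 8 genes with at least 2 member probes, 18 probes in all, and 4 of these genes had a call. In Necap2 the probe at base 505 differed by -0.39 and that at base 1342 by 0.10 (SE 0.07), and in Fbxo42 the probe at base 2598 differed by -0.42 and that at base 5483 by 0.02 (SE 0.09). For these 2 genes the array gives no single direction. The 4 probes of Ubr4, a large ubiquitin ligase of the N-degron pathway, gave 0.12, 0.15, 0.18 and 0.06, none called. Aldh4a1, for the second step of proline breakdown, gave 0.06 and 0.04, and Arhgef10l, another exchange factor for small GTPases, gave 0.05 and 0.13.

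**Figure D4:**
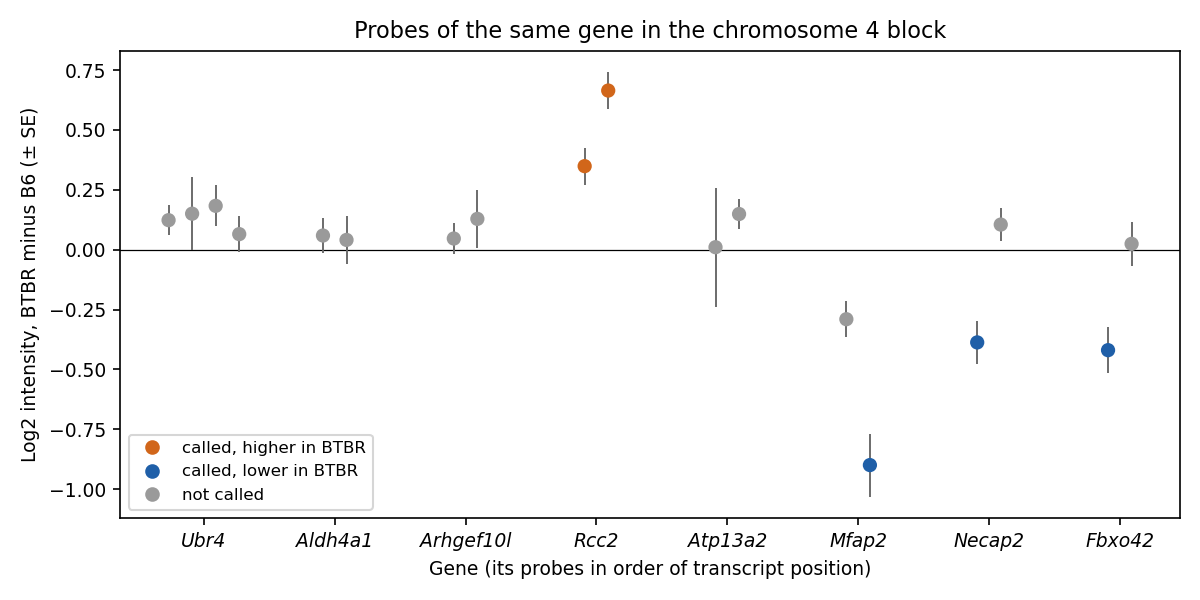
Difference in log2 intensity, BTBR minus B6, with its standard error, for the 18 probes of the 8 block genes with at least 2 member probes, ordered within each gene by transcript position. Both Rcc2 probes are called and higher in BTBR, whereas Necap2 and Fbxo42 have 1 called negative probe and 1 uncalled positive probe each.

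Within the called stretch, 7 genes had no called probe. These were Padi1 and Atp13a2, already given, and Spata21 (-0.02), Epha2 (-0.07), Hspb7 (0.08), Zbtb17 (0.01) and Spen (0.01). Epha2 is a receptor for ephrin-A ligands, Hspb7 a small heat shock protein of heart, Zbtb17 a zinc finger transcription factor, and Spen the corepressor named above. Among 12 other EphA receptors and ephrin-A ligands 0 were called, with 4 higher and 8 lower in BTBR and a median difference of -0.14. Without BTBR mice 1 and 2 that median was 0.07, and Epha3 passed (0.95, adjusted p = 0.041, against 0.40 and 0.56 with all mice). In the proximal members without a call, Klhdc7a, a kelch domain gene, had the highest difference, 0.34 (SE 0.12), with overlap of the strains. Igsf21, a cell adhesion gene of synapses, had a difference of -0.05 (SE 0.27) and a wide spread in BTBR, from 13.58 to 14.88. Without BTBR mice 1 and 2 the difference of Igsf21 was -0.49. Iffo2 (0.07), Tas1r2 (-0.07) and Pax7 (-0.04) differed by less than 0.10.

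The strain differences were compared between the slides. Of the 39 block probes, 24 had the same sign on slide 1 and slide 2. These include the 15 probes whose strains do not overlap, for which a common sign follows from the separation itself and is no further support. The interaction of strain and slide, which had not been used to choose the block, was not significant for any block probe by limma (lowest adjusted p = 0.43), and 0 of all 27982 probes passed. Before adjustment, 4 block probes and 2780 of all probes (9.93%) were under 0.05. Padi2, Hspb7 and Spen were among those 4. Without BTBR mice 1 and 2, 9 block probes were called, beside 5.75% of all probes in that fit, and the calls of Rcc2 at base 1883 (0.31), Szrd1 (0.30), Arhgef19 (-0.39) and B330016D10Rik (0.35) were lost. In BTBR, both mice of slide 1 were above both mice of slide 2 for 18 of the 39 block probes and below them for 2, where over all probes tested the shares were 22.1% above and 26.1% below.

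**Figure D5:**
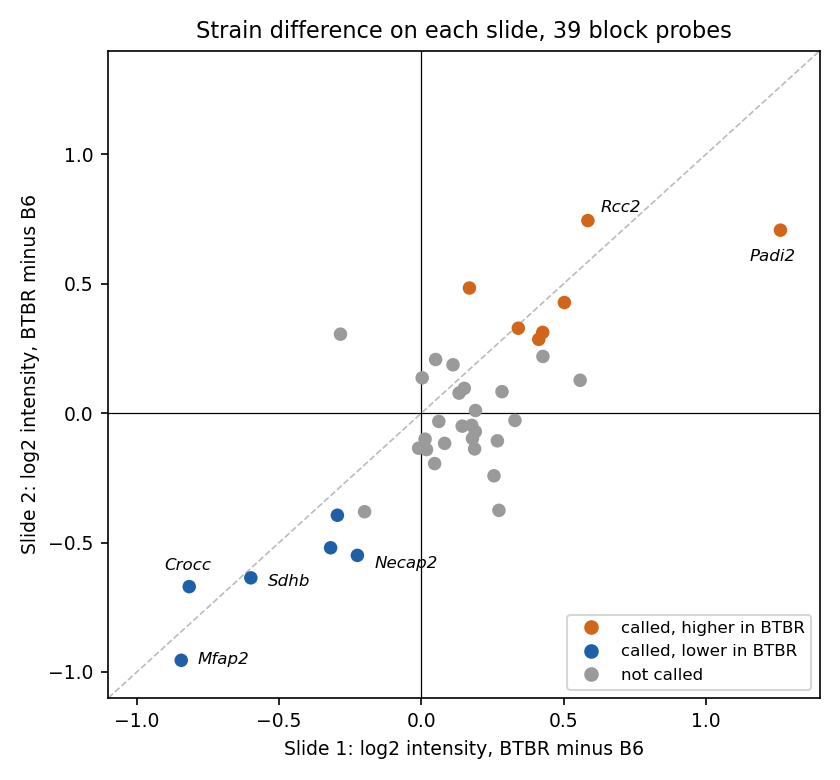
Difference in log2 intensity, BTBR minus B6, on slide 2 against that on slide 1 for the 39 block probes, each from 2 mice per strain and slide, with equality as the dashed line. The 13 called probes lie in the lower left and upper right quadrants, and Padi2 lies below the line, at 1.26 on slide 1 and 0.71 on slide 2.

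Called and uncalled block probes were set side by side for a few technical properties. Median GC content was 45% in called and 50% in uncalled probes, beside 41.7% over all probes tested. Of the called probes 8 lay on the plus strand and 5 on the minus strand, and 3 of 13 called and 5 of 26 uncalled probes bridged an exon junction. The median SD within a strain was 0.10 for called and 0.13 for uncalled block probes. It was 0.12 for all block probes and 0.13 for all probes tested. Sequence differences between the strains under the probes were not tested.

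No call lay next to either end of the block. The first members inside it, in Ubr4, differed by 0.12 and 0.15, and the nearest kept probes outside, both in Emc1, by -0.11 and -0.14. At the distal end Tmem82 and Plekhm2, the latter an adaptor that couples lysosomes to kinesin, were followed outside by probes of the protease gene Ddi2 at 0.23 and -0.14. Within 1.5 Mb before the block 0 of 40 kept probes were called and 6 separated the strains. Within 1.5 Mb after it 2 of 19 were called, in Ddi2 (-0.38) and Fhad1 (-0.37), and 4 separated the strains. The median absolute difference was 0.12 before the block, 0.13 within it and 0.22 after it.

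The 18 probes of the interval that were no members were dim, with 7 above background on none of the 8 arrays. Without the filter on dim probes 1 of the 18 was called, in Rsg1, a small GTPase gene of ciliary transport, with means of 7.96 in B6 and 7.56 in BTBR. It was above background on 2 of 4 B6 arrays and 0 of 4 BTBR arrays, so no fold is given.

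Genes outside the block that belong to the families and pathways of its members, or that mark cell types, were taken as 15 lists, each gene by its brightest probe. Of 94 such genes measured, 7 (7.45%) were called by limma, 3 higher and 4 lower in BTBR, beside 7.82% of the 18399 genes tested in this way, with 3.49% higher and 4.33% lower. Gfap, Sdhaf1, Idh2 and Idh3a have been given. The microglia markers gave 1 call up and 1 down among 7. Cx3cr1, the fractalkine receptor, was higher (1.41, SE 0.09, adjusted p = 1.1e-05), though its other probe gave -0.10, and the complement gene C1qb was lower (-1.01, SE 0.11, adjusted p = 6.0e-04). The neurofilament gene Nefl was the 1 call among 6 neuron markers (-0.65, SE 0.10, adjusted p = 0.0028). These 3 kept their calls without BTBR mice 1 and 2. The lists of proline metabolism (7 genes), hippocampal neurons (6), endothelium (4), choroid plexus (4) and thalamus (3) gave 0 calls, with median differences of 0.06, -0.74, 0.08, 0.38 and 0.91. Without BTBR mice 1 and 2 these medians were 0.043, -0.0028, 0.0096, -0.59 and 0.13, so that the hippocampal neuron, choroid plexus and thalamus values rested on those mice. The hippocampal marker Wfs1 then passed by limma (1.05, adjusted p = 0.012, against 0.71 and 0.096 with all mice). With single arrays left out, Wfs1 passed without BTBR mouse 1 (0.90), C1ql2, another marker of hippocampal neurons, without B6 mouse 2 (-2.16) or BTBR mouse 4 (-2.23), and Ogdh of the tricarboxylic acid cycle without BTBR mouse 4 (0.32).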

How the data were processed

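Hippocampal RNA of 4 BTBR and 4 B6 mice was hybridized to single-color Agilent arrays, 1 mouse per array, and the labels gave the strain of each. The authors deposited spot intensity values, not scaled between arrays, that Feature Extraction read (version 10.7.3.1 per the file headers and 9.1 per the labels). They also deposited a matrix of log2 values made with background subtraction and quantile normalization, used here as an alternative.

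The local background of each spot was taken from its mean intensity with a floor of 0.5 and an offset of 50, which compresses differences of dim probes. Values were then put on the log2 scale and quantile normalized, and replicate spots were reduced to their median. Probes were kept if they were no controls, had no outlier flag and were well above background on at least 75% of the arrays of a strain. Limma 3.58.1 in R 4.3.3 fitted strain alone over 27982 probes with Benjamini-Hochberg adjustment, and the interaction of strain and slide separately. Summaries used pandas 2.3.3 in Python 3.11.15. The scripts were tested on simulated data. Only 4 arrays per strain limit the precision.

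Named were Padi2, Sdhb, every block probe whose strains did not overlap, genes with at least 2 member probes, the probes at the ends of the block, the called list genes and, more briefly, the other members. Mobp, Epha3, Wfs1, C1ql2, Ogdh, Rsg1 and Fhad1 were named after their values were seen. Members and lists were chosen with earlier results of these data known. Of the 42 names in the interval, 36 matched the RefSeq gene table of GRCm38.p6, used for names and order only. Some members are not reported here by name. No mm9 annotation was used, so exons and UTRs are not stated.

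The alternatives were the processed signal, normexp, median centring, the deposited matrix, other filters, the rank product with 100 permutations, each array left out, a block for the replicate number or for the slide, each slide alone, and limma with trend and robust options. Leaving out BTBR mice 1 and 2 was added after the data were seen.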

Additional observations from a re-analysis of the deposited data

Results flagged for a closer look

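Among the 78 sets of 4 arrays, 1 per block probe and strain, 3 held an array whose gap to the nearest of the others was above Dixon's critical value as a share of the range. Chance alone gives such a gap in about 1 in 20 groups. At the Klhdc7a probe starting at 139519612, BTBR mouse 3 read 10.46 and the other BTBR mice 10.84 to 10.89, and without it the difference was 0.45 and called. The dim Aldh4a1 probe starting at 139190587 read 7.80 in BTBR mouse 3 and 7.93 to 7.95 in the others. At Zbtb17, B6 mouse 4 read 12.56 and the other B6 mice 12.68 to 12.70. None of the 3 probes was called with all arrays.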

How the results depend on the processing

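The 15 separated block probes kept their sign under every alternative run. For the fits with arrays left out and for each slide alone, this largely follows from the separation itself and is no further support. Of 321 values of these probes and of block genes with several probes, 298 moved by less than the spread between replicates, 23 moved and 0 reversed. Uncalled block probes near 0, such as Igsf21, Spen and Atp13a2 at base 1490, did change sign with an array left out. The median over all probes tested stayed within -0.01 to 0.03 under every scaling. The number of block probes called, 13 (7 higher, 6 lower in BTBR), fell to 5 (2 and 3) by the rank product, which called 3.95% of all probes, to 7 (4 and 3) within slide 1 and to 6 (3 and 3) within slide 2, each with 2 mice per strain, where 8.66% and 3.70% of all probes were called. With median centring it was 10 (5 and 5), beside 6.88% of all probes. Without BTBR mice 1 and 2 it was 9 (4 and 5), beside 5.75% of all probes. With an array left out it ranged from 7 to 13, beside 5.41% to 7.83% of all probes, with 4 to 7 higher and 3 to 6 lower, and was 7 without B6 mouse 2 or 3 and 8 without B6 mouse 4. The number of separated probes, 15, was then 15 to 19, beside 16.7% to 19.9% of all probes, against 14.2% with all arrays. In all 8 such fits 7 of the 13 calls were kept, among them Rcc2 (base 3638), Padi2, Sdhb, Mfap2, Crocc and Szrd1, and 6 were lost in at least 1. With all but 1 array, Rcc2 at base 1883 was called in 4 of 8 fits, Necap2 and Fbxo42 in 3, and Arhgef19 and B330016D10Rik in 2. Each kept its direction, which largely follows from the separation of its strains. The number of called list genes outside the block, 7, was 5 to 9. Klhdc7a (0.45) and Plekhm2 (0.39) were called without BTBR mouse 3, and with the slide as a block Mfap2 at base 276 and Plekhm2 were called. The cause of these changes was not tested.

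With the replicate number as a block, 9 block probes were called, 5 higher and 4 lower, beside 5.90% of all probes. The numbers were not taken to pair the mice in the main fit. Same-numbered arrays of the strains deviated from their group means with correlations of -0.14, 0.51, -0.10 and 0.39. Of these, 0.51 and 0.39 were the highest of all pairs, while B6 mice 1 and 3 correlated better with other numbers. With 4 arrays per strain these correlations cannot decide whether the numbers pair the mice.

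Signal over background limits dim probes such as B330016D10Rik and Mfap2 at base 276, whose differences moved by over 1.5 times with the scaled processed signal and by less with normexp, and leaves the 18 dim probes of the interval without a usable value. Only 4 mice per strain and 1 probe for 21 of the 29 gene names bound what can be said of single genes.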
